A study of Homo sapiens with 8 samples.

Results

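Elastic fibre and microfibril genes were followed in MRC5, a long-used cell line of human lung fibroblasts, under knockdown of MTHFD2 and under TGF-β1. The set holds 10 genes chosen by name, namely elastin (ELN), the fibrillins FBN1 and FBN2, the fibulins FBLN1, FBLN2, FBLN5, EFEMP1 and EFEMP2, and the microfibril-associated glycoproteins MFAP2 and MFAP5. All 10 are among the 60666 gene IDs of the deposited count table, and 9 of them are among the 13493 genes that were tested, the exception being MFAP5.

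Elastic fibres let lung tissue recoil after it is stretched. Tropoelastin, the soluble product of ELN, is secreted, gathered into droplets, laid onto a scaffold of fibrillin microfibrils and crosslinked by lysyl oxidases into an insoluble core. Fibrillin microfibrils also bind the latent form of TGF-β through its binding proteins, so that they serve as a store of the cytokine. Fibulin-4 (the product of EFEMP2) and fibulin-5 (FBLN5) carry lysyl oxidases and tropoelastin to the microfibrils, and MFAP2 and MFAP5 decorate them. TGF-β1 drives fibroblasts toward a contractile, matrix-producing state, and MTHFD2 is a mitochondrial enzyme of one-carbon metabolism.

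There were 4 groups of 2 bulk RNA libraries. They were cells with a hairpin against MTHFD2 (shMTHFD2) and TGF-β1, cells with a control hairpin (shMock) and TGF-β1, shMTHFD2 cells without TGF-β1, and shMock cells without it. The labels give 4 ng of TGF-β1 with no volume and an incubation of 24 h. Each arm is a single hairpin in a single cell line, and no untransduced cells, second hairpin or rescue are among the libraries, so a difference between the lines cannot be told apart from other differences between these 2 transduced lines. Whether the 2 libraries of a group were grown apart is not stated, so every p-value rests on a spread between libraries that may be technical only. The genotype field of 3 shMTHFD2 samples names another gene, and the groups were therefore taken from the sample titles. The RNA extraction text in the labels names a different cell line and a different hairpin, a conflict that the labels do not settle.

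The libraries held 18162738 to 22221927 counts. Levels are given as CPM. The counts of every library are put on one total after its size is scaled by the trimmed mean of M values. On the library totals before this scaling, 3 counts stood at 0.135 to 0.165 CPM. MTHFD2 measured 93.6 and 91.7 CPM in shMTHFD2 cells with TGF-β1, against 256 and 257 CPM in shMock cells with TGF-β1. Without TGF-β1 it measured 14.9 and 18.7 CPM in shMTHFD2 cells, against 58.6 and 57.0 CPM in shMock cells, which matched the titles in all 8 libraries. The 10 fibroblast markers were all expressed and summed to 30720 to 54200 CPM per library. Of 5 epithelial markers, KRT5, SFTPC and NKX2-1 were at 0 in every library and the 5 together summed to at most 0.229 CPM. CD3E, CDH5 and PECAM1, WT1, and ACAN, COL2A1 and COMP, which mark leukocytes, endothelium, mesothelium and cartilage cells, were also at 0 throughout. Other markers in the lists of these cells had counts, among them TEK, KDR, VWF, CD68, SOX9, CALB2 and MSLN. Of 7 smooth muscle and pericyte markers, DES was at 0 throughout and MYH11 reached at most 0.255 CPM, while MCAM, ACTG2, CSPG4, SYNPO2 and RGS5 were expressed. The 5 endothelial markers, mostly TEK, summed to 40.7 to 48.8 CPM with TGF-β1 and 96.6 to 109.9 CPM without it, and the leukocyte markers, nearly all CD68, to 46.7 to 58.4 CPM with TGF-β1 and 74.3 to 105 CPM without it, and their part in the results was not tested. All 6 genes checked as known TGF-β1 targets passed the test upward with TGF-β1 in both lines. The share of all tested genes that did so was 12.8% in shMTHFD2 cells and 17.3% in shMock cells.

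The 10 genes lie on 10 different chromosomes, and no exon of theirs overlaps an exon of another annotated gene on the same strand. On GRCh38 with GENCODE 29, ELN lies at chr7:74027789-74069907 (+), FBN1 at chr15:48408306-48645849 (-), FBN2 at chr5:128257909-128659185 (-), MFAP2 at chr1:16974502-16980835 (-) and MFAP5 at chr12:8637346-8662888 (-). FBLN1 lies at chr22:45502238-45601135 (+), FBLN2 at chr3:13549131-13638422 (+), FBLN5 at chr14:91869412-91947987 (-), EFEMP1 at chr2:55865967-55924139 (-) and EFEMP2 at chr11:65866441-65873592 (-). Exons of ELN, FBN2, EFEMP2 and MFAP5 overlap those of a gene on the opposite strand, and how strand was used in counting is not given in the sources used here. Those neighbours were low, with ELN-AS1 at 0 to 0.558 CPM, SLC27A6 (over FBN2) at 6.07 to 22.1 CPM, MUS81 (over EFEMP2) at 32.8 to 51.2 CPM and HADHAP2 (over MFAP5) at 0. Reads of the paired genes cannot be told apart.

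The fibrillin pair is shown first because FBN1 and FBN2 responded to TGF-β1 in opposite directions, as described below. The 250 bases before the RefSeq start of each gene, from the table on GRCh38.p14, are printed 5′ to 3′ on the minus strand, for FBN1 at chr15:48644971-48645220 and for FBN2 at chr5:128538246-128538495. Both windows lie inside the outer limits of the annotated genes and touch no annotated exon. Capitals mark the GC box GGGCGG and the E-box CACGTG on either strand.
FBN1: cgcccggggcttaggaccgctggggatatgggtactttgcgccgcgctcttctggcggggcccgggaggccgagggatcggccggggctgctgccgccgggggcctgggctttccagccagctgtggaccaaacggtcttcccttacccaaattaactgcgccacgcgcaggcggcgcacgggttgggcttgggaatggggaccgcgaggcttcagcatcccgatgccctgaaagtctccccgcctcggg
FBN2: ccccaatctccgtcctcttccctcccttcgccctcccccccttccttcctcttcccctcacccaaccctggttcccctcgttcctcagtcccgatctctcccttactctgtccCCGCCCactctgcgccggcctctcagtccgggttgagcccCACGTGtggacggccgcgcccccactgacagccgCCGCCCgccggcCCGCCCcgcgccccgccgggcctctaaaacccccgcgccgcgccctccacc
The windows are 69.6% (FBN1) and 72.8% (FBN2) G and C. Of 5 motifs searched on both strands, which were the GC box GGGCGG, the E-box CACGTG, the SMAD core site CAGAC, the usual TATA box TATAAA and the common AP-1 site TGACTCA, the FBN1 window held none. The FBN2 window held 3 GC boxes and 1 E-box. Among 27305 such windows of all genes, 41.3% held a GC box, 6.28% an E-box, 38.1% the SMAD core site, 11.4% a TATA box and 4.38% the AP-1 site. RefSeq windows were found for 7 of the 10 genes, and not for ELN, EFEMP1 or MFAP5. Of the 7, 5 held a GC box, 4 the SMAD core site, 1 a TATA box, 1 an E-box and 0 the AP-1 site. The SMAD core site was in the windows of FBLN1, FBLN5, EFEMP2 and MFAP2. Those 4 windows overlap annotated exons, by 51, 112, 142 and 215 of their 250 bases in that order. For MFAP2 the bases just after the RefSeq start were not found in a GENCODE transcript of the gene. No binding or chromatin was measured here, and a match is a description of the letters only.

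TGF-β1 changed most of the set, in opposite directions for different members. ELN, MFAP2, FBN1 and FBLN5 were higher with TGF-β1 in both lines, FBN2 and EFEMP1 were lower in both, and FBLN1 was lower in shMock cells. In shMTHFD2 cells 4 of the 9 tested genes were higher and 2 lower (edgeR's quasi-likelihood test, Benjamini-Hochberg adjusted p under 0.05 over all genes), where 12.8% of all tested genes were higher and 11% lower. In shMock cells 4 were higher and 3 lower, where 17.3% of all tested genes were higher and 18.1% lower. ELN was tested in the main setting only because the groups with TGF-β1 carried it past the filter on low counts. Its call there is therefore not independent of that filter. A fit without the filter also called ELN higher in both lines. Leaving ELN aside, 3 of 8 genes were higher and 2 lower in shMTHFD2 cells, and 3 of 8 were higher and 3 lower in shMock cells, with median log2 fold changes of 0.31 and 0.16. The median log2 fold change of the 9 genes was 0.40 in shMTHFD2 cells and 0.49 in shMock cells, beside -0.01 and -0.02 over all tested genes. In bulk RNA, fewer cells of a type and less RNA per cell cannot be told apart.

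**Figure D1:**
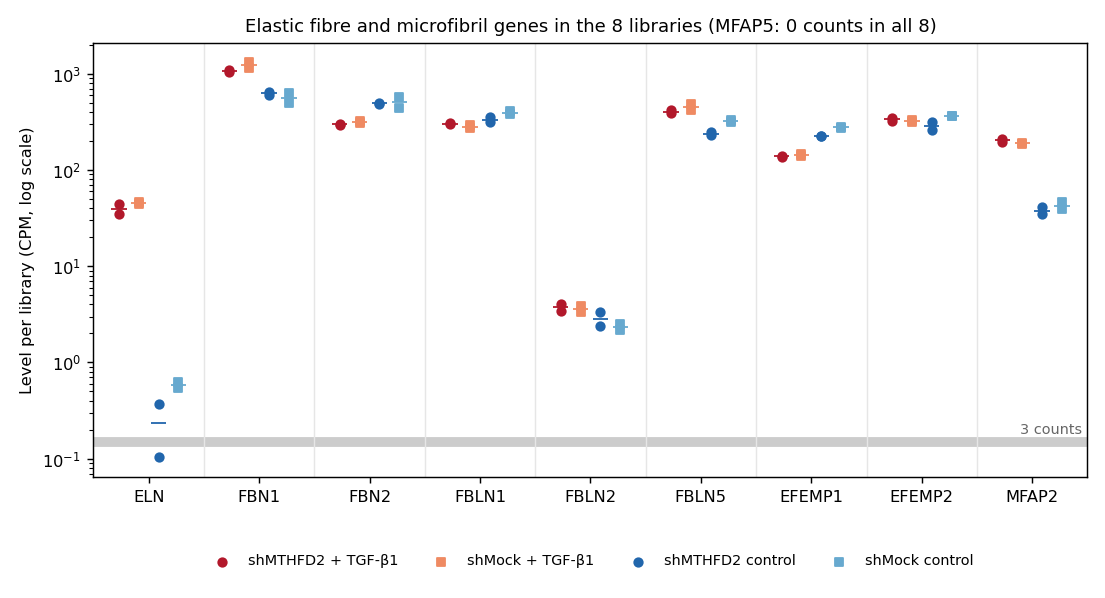
Level of each gene in each library (CPM, log axis), 2 points per group with a line at their mean. The grey band marks 3 counts (0.135 to 0.165 CPM on unscaled library totals, while the points use scaled ones). ELN stood at 34.9 to 46.7 CPM in the 4 libraries with TGF-β1 and at 0.103 to 0.628 CPM in the 4 without it, and MFAP5 had no counts.

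**Figure D2:**
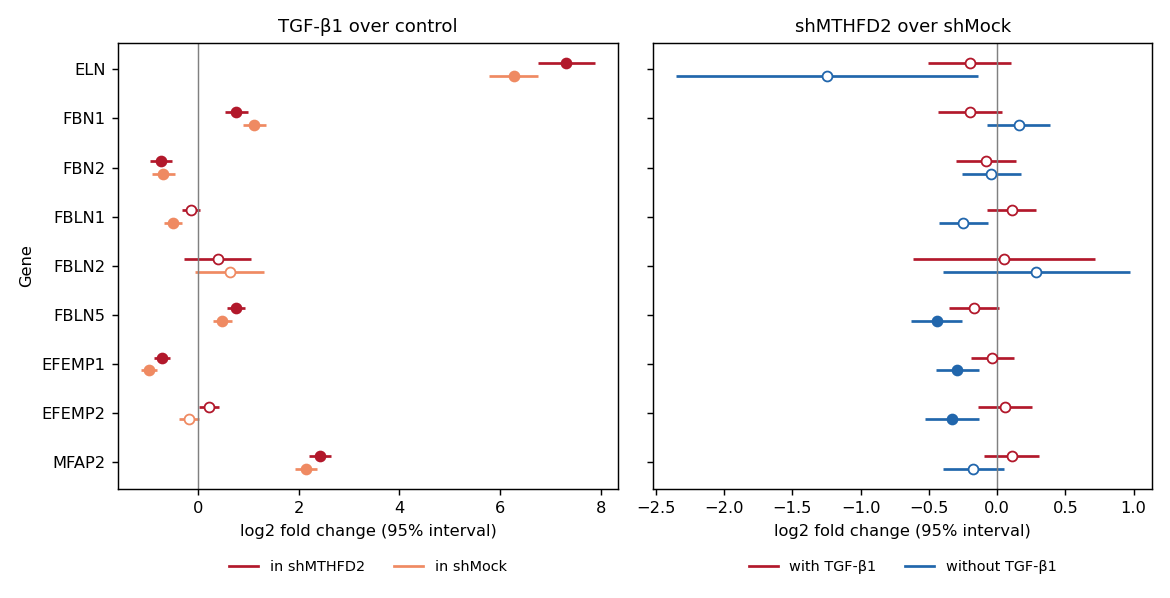
Log2 fold changes with 95% intervals for the 9 tested genes. The left panel shows TGF-β1 over control in shMTHFD2 and in shMock cells, and the right panel shows shMTHFD2 over shMock with and without TGF-β1. Filled points passed the test (edgeR adjusted p under 0.05). The 2 panels have different axes, and no gene passed between the lines with TGF-β1.

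ELN, which encodes the elastic core itself, showed the steepest response of the set. It measured 44.3 and 34.9 CPM in shMTHFD2 cells with TGF-β1 and 46.7 and 44.4 CPM in shMock cells with TGF-β1. Without TGF-β1 it measured 0.370 and 0.103 CPM in shMTHFD2 cells, which are 8 and 2 counts, and 0.628 and 0.541 CPM in shMock cells, which are 14 and 11 counts. The libraries with TGF-β1 did not overlap those without it, and ELN was close to undetected in untreated cells of both lines. ELN passed the filter on low counts only through the groups with TGF-β1, so that it had to differ if it was tested under that filter. The log2 fold change with TGF-β1 was 7.31 (SE 0.27, edgeR adjusted p 3.01e-11) in shMTHFD2 cells and 6.26 (SE 0.23, edgeR adjusted p 2.27e-11) in shMock cells. Among the 13493 tested genes the response ranked 3 from the top in shMTHFD2 cells and 6 from the top in shMock cells. From the counts alone, the ratio of the TGF-β1 libraries to the control libraries was 163 in shMTHFD2 cells (exact 95% interval 88.1 to 339.5, from 1557 and 10 counts) and 77.7 in shMock cells (52.5 to 120.4, from 1652 and 25 counts), intervals that cover counting error only. The size of the fold in shMTHFD2 cells depended on which untreated library was kept. The log2 fold change was 8.48 without shMTHFD2 control replicate 1 and 6.71 without replicate 2, the library with 2 counts.

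The fibrillins, which polymerise into the microfibril backbone, moved apart. FBN1, the main fibrillin of postnatal tissue, measured 1037 and 1093 CPM in shMTHFD2 cells and 1308 and 1138 CPM in shMock cells with TGF-β1, against 605 and 644 CPM in shMTHFD2 cells and 630 and 491 CPM in shMock cells without it. All 4 libraries with TGF-β1 stood above all 4 without. The log2 fold change was 0.77 (SE 0.11, edgeR adjusted p 7.16e-05) in shMTHFD2 cells and 1.13 (SE 0.11, edgeR adjusted p 1.17e-06) in shMock cells. FBN2, the fibrillin best known from development, measured 296 and 300.1 CPM in shMTHFD2 cells and 323 and 309 CPM in shMock cells with TGF-β1, against 484 and 499 CPM in shMTHFD2 cells and 572 and 439 CPM in shMock cells without it. Here all 4 libraries with TGF-β1 stood below all 4 without, and the 2 untreated shMock libraries were the furthest apart. FBN2 fell by 0.72 on the log2 scale in shMTHFD2 cells (SE 0.10, edgeR adjusted p 7.43e-05) and by 0.68 in shMock cells (SE 0.10, edgeR adjusted p 1.04e-04).

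Per kilobase of exon, the fibrillins were close to even without TGF-β1 and FBN1 was ahead with it. The ratio of the FBN1 level to the FBN2 level, both as CPM per kb, was 2.88 and 2.99 in shMTHFD2 cells and 3.33 and 3.02 in shMock cells with TGF-β1. Without TGF-β1 it was 1.03 and 1.06 in shMTHFD2 cells and 0.905 and 0.918 in shMock cells. The ratios with TGF-β1 were thus separated from those without it by more than the spread between libraries in either line.

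**Figure D3:**
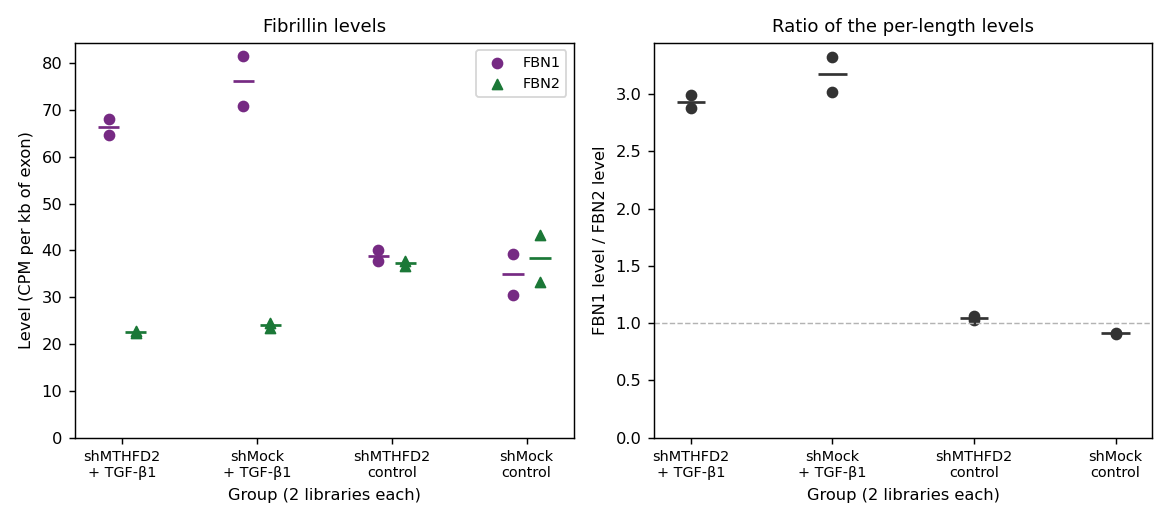
FBN1 and FBN2 in each library, with a line at each mean of 2 libraries. Left, level in CPM per kb of exon. Right, ratio of the FBN1 level to the FBN2 level, with a dashed line at 1. The ratio lay between 2.88 and 3.33 in the 4 libraries with TGF-β1 and between 0.905 and 1.06 in the 4 without it.

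Of MFAP2 and MFAP5, the microfibril-associated glycoproteins of this set, only MFAP2 was detected in these 8 libraries. MFAP1, MFAP3 and MFAP4, listed among the partners, were expressed as well. MFAP2, which binds fibrillin and tropoelastin, measured 212 and 195 CPM in shMTHFD2 cells and 188 and 190.0 CPM in shMock cells with TGF-β1, against 40.9 and 34.7 CPM in shMTHFD2 cells and 46.1 and 39.2 CPM in shMock cells without it. Its libraries with and without TGF-β1 were far from overlapping. The log2 fold change was 2.42 in shMTHFD2 cells (SE 0.10, edgeR adjusted p 1.06e-10, rank 86 from the top) and 2.15 in shMock cells (SE 0.10, edgeR adjusted p 2.84e-10, rank 123 from the top). MFAP5, its paralogue, had 0 counts in all 8 libraries, although the libraries together held 159083417 counts. In each library it thus lay below the 0.135 to 0.165 CPM that 3 counts would give on unscaled totals, and it was not tested. Relative to FBN1, MFAP2 stood at 1.13 and 0.981 per kb in shMTHFD2 cells and 0.792 and 0.920 in shMock cells with TGF-β1. Without TGF-β1 that ratio was 0.372 and 0.297 in shMTHFD2 cells and 0.404 and 0.440 in shMock cells.

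Among the short fibulins, FBLN5 and EFEMP1 moved in opposite directions. FBLN5, which tethers tropoelastin to microfibrils and to integrins, measured 415 and 393 CPM in shMTHFD2 cells and 488 and 422 CPM in shMock cells with TGF-β1. Without TGF-β1 it measured 246 and 231 CPM in shMTHFD2 cells and 317 and 331 CPM in shMock cells, below the treated libraries of the same line. The log2 fold change was 0.76 in shMTHFD2 cells (SE 0.09, edgeR adjusted p 7.84e-06) and 0.49 in shMock cells (SE 0.09, edgeR adjusted p 4.15e-04). EFEMP1, the gene of fibulin-3, measured 138 and 139 CPM in shMTHFD2 cells and 145 and 139 CPM in shMock cells with TGF-β1, against 225 and 227 CPM in shMTHFD2 cells and 281 and 272 CPM in shMock cells without it. Its treated libraries lay below the untreated ones in both lines. EFEMP1 fell by 0.71 on the log2 scale in shMTHFD2 cells (SE 0.07, edgeR adjusted p 3.28e-06) and by 0.97 in shMock cells (SE 0.07, edgeR adjusted p 8.96e-08).

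EFEMP2, the gene of fibulin-4, did not pass the test in either line. It measured 350.0 and 319.9 CPM in shMTHFD2 cells and 316 and 326 CPM in shMock cells with TGF-β1, against 316 and 259.6 CPM in shMTHFD2 cells and 362 and 362 CPM in shMock cells without it. The log2 difference with TGF-β1 was 0.22 in shMTHFD2 cells (95% interval 0.02 to 0.42, edgeR adjusted p 0.112) and -0.17 in shMock cells (95% interval -0.37 to 0.03, edgeR adjusted p 0.169). The treated libraries lay above the untreated ones in shMTHFD2 cells and below them in shMock cells. Without shMTHFD2 control replicate 1 the first value was 0.35 (edgeR adjusted p 0.02). In this and every other fit without 1 library, an arm holds a lone library, which is assumed to vary like the other groups. In shMock cells it was -0.31 (edgeR adjusted p 0.0175) with library totals in place of scaled library sizes, under which the median log2 difference of all genes stood at -0.16 in that comparison and at -0.12 in the one within shMTHFD2 cells.

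The longer fibulins behaved differently from each other. FBLN1, found in the core of elastic fibres and in basement membranes, measured 305 and 301 CPM in shMTHFD2 cells and 290 and 273 CPM in shMock cells with TGF-β1. It measured 351 and 311 CPM in shMTHFD2 cells and 409 and 377 CPM in shMock cells without TGF-β1. FBLN1 fell by 0.48 on the log2 scale in shMock cells (SE 0.08, edgeR adjusted p 3.74e-04), while the log2 difference in shMTHFD2 cells was -0.13 (95% interval -0.31 to 0.05, edgeR adjusted p 0.315), which passed with library totals (-0.24, edgeR adjusted p 0.0342). FBLN2, another fibulin of the elastic fibre and vessel wall, was sparse throughout, with 4.08 and 3.45 CPM in shMTHFD2 cells and 3.88 and 3.38 CPM in shMock cells with TGF-β1, against 3.33 and 2.37 CPM in shMTHFD2 cells and 2.51 and 2.17 CPM in shMock cells without it. Its log2 difference was 0.40 in shMTHFD2 cells (95% interval -0.27 to 1.07, edgeR adjusted p 0.415) and 0.63 in shMock cells (-0.05 to 1.31, edgeR adjusted p 0.139). The value in shMock cells passed once GC content and gene length were modelled (0.84, edgeR adjusted p 0.0475), and across genes the log2 difference in that comparison ran with GC content at a Spearman rho of -0.285, a description over genes that share libraries.

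Compared per kilobase of exon, the order of the members changed with TGF-β1. With it, FBLN5 was first in both lines, at 81.3 ± 3.1 CPM per kb in shMTHFD2 cells and 91.4 ± 9.4 CPM per kb in shMock cells (SD, n = 2). MFAP2, FBN1 and EFEMP2 followed between 59.5 and 76.2 CPM per kb, and in shMTHFD2 cells neither MFAP2 and FBN1 nor FBN1 and EFEMP2 were apart beyond their spread. FBLN1, EFEMP1 and FBN2 came next, and ELN was eighth at 6.05 ± 1.02 CPM per kb in shMTHFD2 cells and 6.96 ± 0.25 CPM per kb in shMock cells. Without TGF-β1, EFEMP1 was first, at 57.0 ± 0.4 CPM per kb in shMTHFD2 cells and 69.8 ± 1.7 CPM per kb in shMock cells, although in shMTHFD2 cells EFEMP1, EFEMP2, FBLN5 and FBLN1 each overlapped the next. ELN, at 0.036 ± 0.029 and 0.089 ± 0.009 CPM per kb in shMTHFD2 and shMock cells without TGF-β1, was the lowest of the genes with any counts, with FBLN2 next above it. FBN1 and FBN2 overlapped each other in both lines without TGF-β1.

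Summed over the 10 genes, the per-length level was 392 and 378 CPM per kb in shMTHFD2 cells and 411 and 385 CPM per kb in shMock cells with TGF-β1. Without it the sum was 302 and 285.0 CPM per kb in shMTHFD2 cells and 357 and 332 CPM per kb in shMock cells. MFAP2 took 18.1% of this sum in shMTHFD2 cells and 16.3% in shMock cells with TGF-β1, against 4.41% in shMTHFD2 cells and 4.24% in shMock cells without it. EFEMP1 took 9.06% in shMTHFD2 cells and 8.98% in shMock cells with TGF-β1, against 19.4% and 20.3% in shMTHFD2 and shMock cells without it. The share of ELN was 1.57% in shMTHFD2 cells and 1.75% in shMock cells with TGF-β1, and 0.012% and 0.026% in shMTHFD2 and shMock cells without it.

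**Figure D4:**
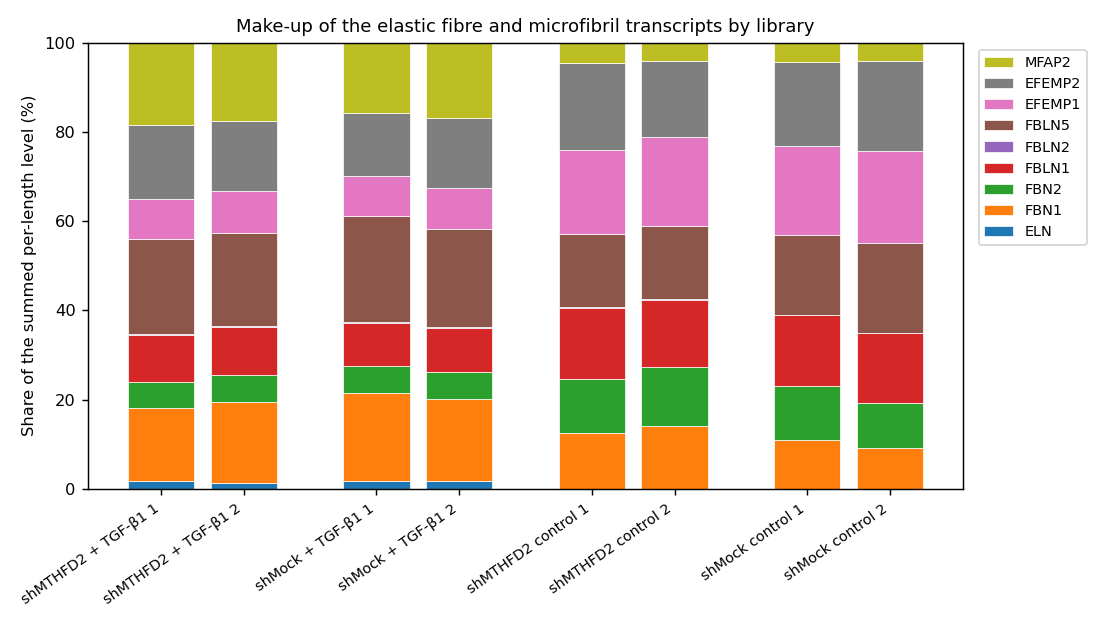
Share of each gene in the summed per-length level (CPM per kb of exon) of the set, as stacked bars from 0 to 100%, 1 bar per library. MFAP2 and FBN1 took more of the bar with TGF-β1, and EFEMP1 and FBN2 took less. MFAP5 is at 0 and FBLN2 is too thin to see.

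Knockdown of MTHFD2 was compared next, first in cells with TGF-β1. None of the 9 genes passed the test between shMTHFD2 and shMock cells, where 13.1% of all tested genes did, and none had an unadjusted p under 0.05 with edgeR. DESeq2 called none either, and 2 of the 9 had an unadjusted p under 0.05 there. The log2 difference was -0.20 for ELN (95% interval -0.50 to 0.10), -0.20 for FBN1 (-0.43 to 0.03) and -0.17 for FBLN5 (-0.35 to 0.01). It was 0.11 for MFAP2 (-0.09 to 0.31) and 0.11 for FBLN1 (-0.07 to 0.29). For FBN2, FBLN2, EFEMP1 and EFEMP2 the values lay between -0.08 and 0.06, and the interval of FBLN2 was wide, at -0.61 to 0.71. The median of the 9 was -0.03, beside 0.01 over all tested genes. Across genes the difference ran with GC content at a Spearman rho of 0.329. With GC content and gene length modelled, the signs of the values of FBLN1, FBLN2, EFEMP1, EFEMP2 and MFAP2 turned, none of them called. The 6 myofibroblast markers summed to 2679 to 2798 CPM in shMTHFD2 cells and 3782 to 3795 CPM in shMock cells with TGF-β1, and 4 of them were lower, where 8.23% of all tested genes were lower. The 7 smooth muscle and pericyte markers summed to 343 to 346 CPM in shMTHFD2 cells and 514 to 524 CPM in shMock cells with TGF-β1, with 3 of the 5 tested lower. The part of these marker differences in the values of the 9 genes was not tested.

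Without TGF-β1, 3 of the 9 genes were lower in shMTHFD2 than in shMock cells, where 8.19% of all tested genes were lower, and all 3 are short fibulins. FBLN5, at 246 and 231 CPM in shMTHFD2 cells against 317 and 331 CPM in shMock cells, fell by 0.44 on the log2 scale (SE 0.09, edgeR adjusted p 0.00379). EFEMP1, at 225 and 227 CPM in shMTHFD2 cells against 281 and 272 CPM in shMock cells, fell by 0.29 (SE 0.07, edgeR adjusted p 0.0192). EFEMP2, at 316 and 259.6 CPM in shMTHFD2 cells against 362 and 362 CPM in shMock cells, fell by 0.33 (SE 0.09, edgeR adjusted p 0.0338). In each of them both shMTHFD2 libraries lay below both shMock libraries. None of the 3 calls held in every setting. FBLN5 lost its call without shMTHFD2 control replicate 2 (edgeR adjusted p 0.0606), EFEMP1 without any 1 of the 4 untreated libraries (edgeR adjusted p 0.0844 to 0.122), and EFEMP2 without shMTHFD2 control replicate 2 (0.374) or either untreated shMock library (0.114 and 0.152). With library totals 1 gene was called, with the adjusted p of EFEMP1 at 0.0553 and of EFEMP2 at 0.091, and without shMTHFD2 control replicate 2 none was.

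The other members were not called without TGF-β1. FBLN1 had a log2 difference of -0.25 (95% interval -0.43 to -0.07, edgeR adjusted p 0.0716), which DESeq2 called (-0.24, DESeq2 adjusted p 0.0385). ELN had one of -1.25 (95% interval -2.36 to -0.14, edgeR adjusted p 0.144), resting on 10 counts in shMTHFD2 and 25 counts in shMock libraries, and it was -2.42 without shMTHFD2 control replicate 1 and -0.65 without replicate 2. The values for FBN1, FBN2, FBLN2 and MFAP2 were 0.16, -0.04, 0.29 and -0.17, each with groups that overlapped. The median of the 9 genes was -0.25, beside -0.01 over all tested genes. Across genes the difference ran with GC content at a rho of -0.143, and the same number of members, 3, was called with GC content and length modelled. The myofibroblast markers summed to 889 to 931 CPM in shMTHFD2 cells and 1202 to 1297 CPM in shMock cells without TGF-β1, with 3 of 6 lower, where 8.19% of all tested genes were lower. The smooth muscle and pericyte markers summed to 241 to 244 CPM in shMTHFD2 cells and 338 to 374 CPM in shMock cells without TGF-β1, with 3 of the 5 tested lower. The part of these marker differences in the fibulin values was not tested.

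Whether the TGF-β1 response itself differed between the lines was asked with the interaction, which is the log2 response in shMTHFD2 cells minus that in shMock cells. None of the 9 genes passed, where 0.0889% of all tested genes did. With edgeR 5 of the 9 had an unadjusted p under 0.05. DESeq2 called none, with 5 under 0.05 unadjusted, but it gave no adjusted p for ELN or FBLN2. The values were -0.36 for FBN1 (95% interval -0.68 to -0.03, edgeR adjusted p 0.363), 0.39 for EFEMP2 (0.11 to 0.67, edgeR adjusted p 0.262) and 0.35 for FBLN1 (0.10 to 0.61, edgeR adjusted p 0.259). FBLN5 had 0.27 (0.01 to 0.53), EFEMP1 0.26 (0.03 to 0.48), MFAP2 0.28 (-0.02 to 0.58) and ELN 1.05 (-0.11 to 2.20). The calls of FBLN1 under TGF-β1 in shMock cells and of the fibulins under knockdown without TGF-β1 are thus not shown to be particular to those groups. Across genes the interaction ran with GC content at a rho of 0.473, and with GC content and length modelled 3 of the 9 had an unadjusted p under 0.05. Both TGF-β1 comparisons and both knockdown comparisons share groups with each other, and their values are set side by side here for that reason only.

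Partners of the fibres responded to TGF-β1 in both directions. Of 28 listed genes that bind, bridge or resemble fibrillins, elastin and fibulins, 21 were tested. With TGF-β1, 11 were higher and 3 lower in shMTHFD2 cells, and 11 were higher and 7 lower in shMock cells. Over all tested genes 12.8% were higher and 11% lower in shMTHFD2 cells, and 17.3% were higher and 18.1% lower in shMock cells. VCAN, the proteoglycan versican that binds fibrillin and fibulins, had a log2 fold change of 3.32 in shMTHFD2 cells (SE 0.12, edgeR adjusted p 2.65e-11) and 3.88 in shMock cells (SE 0.12, edgeR adjusted p 4.63e-12). LTBP2, which binds fibrillin and fibulin-5, had one of 2.46 in shMTHFD2 cells (edgeR adjusted p 3.6e-11) and 2.57 in shMock cells (edgeR adjusted p 1.7e-11), and it was also among the 6 TGF-β1 targets checked. The median of the 21 was 0.39 in shMTHFD2 cells and 0.38 in shMock cells, beside -0.01 and -0.02 over all tested genes. Between the lines, 2 partners were higher and 2 lower in shMTHFD2 than in shMock cells with TGF-β1, and 2 were higher and 4 lower without it. Over all tested genes 4.83% were higher and 8.23% lower with TGF-β1, and 3.25% were higher and 8.19% lower without it. The smallest adjusted p belonged to THSD4, the gene of ADAMTSL6, a fibrillin-binding protein, with log2 differences of -0.55 with TGF-β1 (edgeR adjusted p 5.11e-04) and -0.54 without it (edgeR adjusted p 5.19e-04). ADAMTS6, a secreted metalloproteinase, followed with -0.68 with TGF-β1 (edgeR adjusted p 5.77e-04) and -0.81 without it (edgeR adjusted p 0.00199).

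Of 11 genes of crosslinking and assembly, 10 were tested. With TGF-β1, 5 were higher and 0 lower in shMTHFD2 cells, and 6 were higher and 1 lower in shMock cells, with median log2 fold changes of 0.37 and 0.50. The shares of all tested genes were 12.8% higher and 11% lower in shMTHFD2 cells, and 17.3% higher and 18.1% lower in shMock cells. LOX, which crosslinks elastin and collagen, averaged 595 ± 15 CPM in shMTHFD2 cells and 877 ± 37 CPM in shMock cells with TGF-β1, against 284 ± 11 CPM in shMTHFD2 cells and 429 ± 3 CPM in shMock cells without it (SD, n = 2). Its log2 fold change with TGF-β1 was 1.07 in shMTHFD2 cells (edgeR adjusted p 5.96e-08) and 1.03 in shMock cells (edgeR adjusted p 6.79e-08). LOXL2, a further lysyl oxidase, had 0.96 in shMTHFD2 cells and 0.76 in shMock cells (edgeR adjusted p 3.09e-07 and 2.83e-06). Between the lines, 2 crosslinking genes were lower in shMTHFD2 cells with TGF-β1 and 4 without it, and none was higher, where 8.23% of all tested genes were lower with TGF-β1 and 8.19% without it. LOX fell by 0.56 with TGF-β1 (edgeR adjusted p 2.79e-04) and by 0.59 without it (edgeR adjusted p 1.80e-04) in shMTHFD2 relative to shMock cells, and it kept these calls when any single library was left out. ATP7A, a copper transporter that supplies lysyl oxidases, fell by 0.43 with TGF-β1 (edgeR adjusted p 0.0243), and FKBP10, a chaperone of collagen and tropoelastin, fell by 0.32 without it (edgeR adjusted p 0.0132). ATP7A lost its call without TGF-β1 replicate 1 of either line and with library totals (edgeR adjusted p 0.0572), and FKBP10 lost its call without control replicate 2 of either line.

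**Figure D5:**
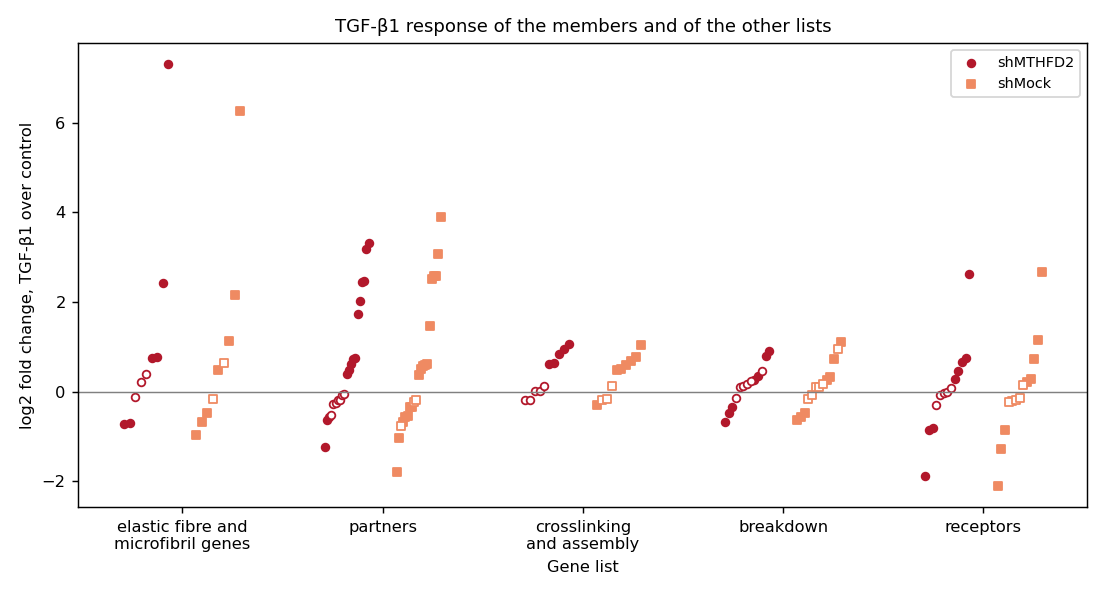
Log2 fold change with TGF-β1 over control for the tested genes of each list, in shMTHFD2 cells (circles) and shMock cells (squares), each column sorted by value. Filled symbols passed the test (edgeR adjusted p under 0.05). In shMTHFD2 cells the list medians ran from -0.01 for the receptors to 0.40 for the elastic fibre and microfibril genes. Without ELN, which passed the filter only through the groups with TGF-β1, the latter was 0.31, below the partners (0.39) and crosslinking and assembly (0.37). In shMock cells the list medians ran from -0.14 for the receptors to 0.50 for crosslinking and assembly. There the elastic fibre and microfibril genes stood at 0.49, or 0.16 without ELN.

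A list of 19 genes pooled proteases able to act on elastic fibres with protease inhibitors, so its counts give no direction of breakdown. Of the 19 genes, 13 were tested. With TGF-β1, 4 were higher and 3 lower in each line, where 12.8% of all tested genes were higher and 11% lower in shMTHFD2 cells and 17.3% were higher and 18.1% lower in shMock cells. MMP2, a gelatinase that also cleaves elastin, had log2 fold changes of 0.90 in shMTHFD2 cells and 0.73 in shMock cells (edgeR adjusted p 2.91e-06 and 1.94e-05). TIMP3, a matrix-bound inhibitor, had 0.80 in shMTHFD2 cells and 1.11 in shMock cells (edgeR adjusted p 7.45e-06 and 1.22e-07). Between the lines, 2 of the 13 were lower in shMTHFD2 cells with TGF-β1 and 4 without it, with none higher, beside 8.23% of all tested genes lower with TGF-β1 and 8.19% without it. TIMP3 fell by 1.15 with TGF-β1 (edgeR adjusted p 3.85e-06) and by 0.85 without it (edgeR adjusted p 3.06e-05), and ADAM10, a membrane protease, fell by 0.89 with TGF-β1 and by 0.77 without it (edgeR adjusted p 1.95e-05 and 3.86e-05). Without shMTHFD2 TGF-β1 replicate 1, 4 in place of 7 of these genes were called for TGF-β1 in shMTHFD2 cells.

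Of 15 listed receptors, mostly integrin subunits that bind fibrillins and fibulins and parts of the elastin receptor complex, 13 were tested. With TGF-β1, 5 were higher and 3 lower in shMTHFD2 cells, and 5 were higher and 4 lower in shMock cells, beside 12.8% higher and 11% lower in shMTHFD2 cells and 17.3% higher and 18.1% lower in shMock cells over all tested genes. ITGB3, the beta subunit of an integrin that binds fibrillin, had log2 fold changes of 2.63 in shMTHFD2 cells and 2.67 in shMock cells (edgeR adjusted p 3.92e-11 and 2.04e-11). ITGA8 fell by 1.89 in shMTHFD2 cells and by 2.11 in shMock cells (edgeR adjusted p 1.05e-09 and 3.30e-10). Between the lines, 3 receptors were higher and 3 lower in shMTHFD2 cells with TGF-β1, and 0 were higher and 2 lower without it. All tested genes gave 4.83% higher and 8.23% lower with TGF-β1, and 3.25% higher and 8.19% lower without it. SDC4, a syndecan, fell by 0.85 with TGF-β1 and by 0.90 without it (edgeR adjusted p 1.98e-04 and 6.78e-05). ITGAV fell by 0.40 with TGF-β1 (edgeR adjusted p 0.00674) and ITGB3 by 0.34 without it (edgeR adjusted p 0.0454), calls that ITGAV lost without shMock TGF-β1 replicate 1 or shMTHFD2 TGF-β1 replicate 2 and ITGB3 lost without any of 5 libraries, all but shMock control replicate 2 and both shMock TGF-β1 libraries. None of the tested genes of these 4 lists passed for the interaction with edgeR.

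The counts between the lines moved by more than 1.5 times when single libraries were left out. In each fit named here the number of calls over all tested genes moved in the same direction. The moves are therefore not shown to be particular to these lists. With TGF-β1, 2 in place of 4 partners were called without shMock TGF-β1 replicate 1 or either shMTHFD2 TGF-β1 library, 1 in place of 2 crosslinking genes without TGF-β1 replicate 1 of either line, and 1 to 3 in place of 6 receptors without shMock TGF-β1 replicate 1 or either shMTHFD2 TGF-β1 library. Without TGF-β1, 2 in place of 6 partners were called without control replicate 2 of either line. For crosslinking, 1 or 2 in place of 4 genes were called without either shMock control library or shMTHFD2 control replicate 2. For receptors, 1 in place of 2 was called without shMock control replicate 1 or any of the 4 shMTHFD2 libraries, and 4 without either shMock TGF-β1 library.

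The genes with the profile nearest to 3 of the members were found over the 8 libraries among 10932 genes with a group mean of at least 5 CPM, by the root mean square distance between log2 CPM profiles brought to mean 0 and SD 1. For ELN they were FZD8 (distance 0.044), FRMD5 (0.046) and GOLGA2 (0.051). FZD8 averaged 77.0 CPM in shMTHFD2 and 78.1 CPM in shMock cells with TGF-β1, against 2.56 CPM in shMTHFD2 and 3.97 CPM in shMock cells without it. For FBN1 the nearest were TASOR2 (0.076), COL12A1 (0.109) and ITGA2 (0.113), and for FBLN5 they were SEC13 (0.118), TARS1 (0.120) and CALR (0.121). The ELN profile mainly separates libraries with and without TGF-β1, as many profiles do, and the measure leaves out the size of the change, so that GOLGA2 is near ELN while averaging 218 CPM in shMTHFD2 and 217 CPM in shMock cells with TGF-β1, against 142 and 149 CPM in shMTHFD2 and shMock cells without it.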

How the data were processed

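Bulk RNA libraries of MRC5 cells were analysed from the whole-number counts deposited by the authors, 1 column per library over 60666 gene IDs, in a file whose name speaks of FPKM. STAR 2.7.1a and DESeq2 1.32.0, with the build GRCh38, are listed in the submitters' processing notes. For the counter, annotation, strand setting and filters, the answer is not given in the sources used here. Symbols came from the supplied name table (60437 IDs), and positions and exon lengths from GENCODE 29 (58420 IDs).

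Genes averaging 1 CPM or more over the 8 libraries were kept (13493, with 99.8 to 99.9% of counts). One edgeR 4.0.16 quasi-likelihood fit in R 4.3.3 estimated the 4 group means with 4 residual degrees of freedom, TMM factors of 0.914 to 1.07 and a common biological coefficient of variation of 8.79%. Benjamini-Hochberg adjustment ran over every tested gene. Standard errors are approximate, being the log2 fold change divided by the root of F. Replicates differed by more than counting error (chi-square per degree of freedom 6.09 to 9.95). The fit was tested on simulated data. Alternatives were DESeq2 1.42.0, other scalings and filters, GC and length offsets, a replicate block and leaving out each library, where the lone library left in an arm is assumed to vary like the other groups.

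The members, lists, tests and naming rule were chosen with earlier results of these data known. The rule names all 10 members, MTHFD2, the 2 genes with the smallest p of each further list in each comparison, and the 3 nearest profiles of ELN, FBN1 and FBLN5. Promoter sequences are from RefSeq, and protein sequences were not used here.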

Additional observations from a re-analysis of the deposited data

Results flagged for a closer look

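FBLN1 stood out because shMTHFD2 cells lay on opposite sides of shMock cells with and without TGF-β1. With TGF-β1 it measured 305 and 301 CPM in shMTHFD2 cells and 290 and 273 CPM in shMock cells, and without it 351 and 311 CPM in shMTHFD2 cells and 409 and 377 CPM in shMock cells. The difference of the 2 log2 values was 0.3535 (edgeR interaction, adjusted p 0.259), which did not pass the threshold. Neither of the 2 log2 values passed with edgeR in the main setting. With GC content and gene length modelled, the value with TGF-β1 was -0.0046, on the same side as the value without TGF-β1.

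EFEMP2 stood out because its TGF-β1 libraries lay above the untreated ones in shMTHFD2 cells and below them in shMock cells. The difference of the 2 log2 responses was 0.3889 (edgeR interaction, adjusted p 0.262), which did not pass either, and it ranged from 0.22 to 0.51 when single libraries were left out.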

How the results depend on the processing

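Across 17 other settings, 749 values were computed for 45 results on single members. Of these, 711 kept direction and side of the threshold, 10 lost a call, 6 gained one and 22 changed sign, and none of the sign changes was in any of the 16 results called in the main setting. The 102 values of called TGF-β1 results in shMTHFD2 cells and the 119 in shMock cells all kept call and direction. In each line 17 of these values belong to ELN. Wherever the filter on low counts was used, ELN passed it only through the groups with TGF-β1. The number of members lower in shMTHFD2 than in shMock cells without TGF-β1 was 3, and 1 with library totals and 0 to 3 when single libraries were left out. A fit with a replicate block called 0 members between the lines with TGF-β1, 3 without it, 6 and 7 for TGF-β1 in shMTHFD2 and shMock cells and 0 for the interaction, the same numbers as without the block. No shared effect of the replicate number was seen, since deviations of same-numbered libraries correlated at -0.031 to 0.105 across genes. These values do not show how the libraries were grown or paired. Sign changes between shMTHFD2 and shMock cells with TGF-β1 were FBN2 0.0062 and EFEMP1 0.0565 with library totals. With GC and length offsets, and with these offsets and the replicate block, they were FBLN1 -0.0046 and -0.0026, FBLN2 -0.0962 and -0.0926, EFEMP1 0.0448 and 0.0451, EFEMP2 -0.00076 and -0.0021, and MFAP2 -0.0216 and -0.0215. With single libraries left out, the log2 difference with TGF-β1 ran from -0.0864 to 0.166 for FBLN2, from -0.0584 to 0.0043 for EFEMP1 and from -0.0177 to 0.124 for EFEMP2, and without TGF-β1 from -0.0115 to 0.348 for FBN1 and from -0.218 to 0.161 for FBN2. FBN2 was 0.0294 without TGF-β1 with library totals. The FBN2 interaction was 0.0172 with GC and length offsets, 0.0137 with these and the block, and -0.245 to 0.134 with single libraries left out. The crosslinking genes lower in shMTHFD2 than in shMock cells with TGF-β1 were 2, and 6 with GC and length offsets or 4 with these and the block. Receptors lower without TGF-β1 were 2, and 1 with the size factors of DESeq2, library totals, either offset or only the untreated libraries. DESeq2 called 1 partner and 1 receptor for the interaction, and a fit without the filter called 1 partner. Over all tested genes, library totals changed the split of calls to 1338 higher and 717 lower in shMTHFD2 than in shMock cells with TGF-β1, from 652 and 1110, to 755 and 740 without it, from 438 and 1105, to 1222 and 2455 for TGF-β1 in shMTHFD2 cells, from 1725 and 1489, and to 1570 and 3932 in shMock cells, from 2333 and 2443. A stricter minimum of 5 CPM left 8 members. The cause of these changes was not tested. Depth limits ELN without TGF-β1 (2 to 14 counts a library) and FBLN2.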
